A study of Mus musculus with 2 samples.

Results

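The clustered protocadherin locus is a stretch of mouse chromosome 18 that carries the alpha, beta and gamma protocadherin gene arrays. Its members here were the CpG cytosines between 36.9 and 37.9 Mb (build mm10) that both libraries covered with 10 reads or more, which gave 1680 cytosines of 1603296 that passed the same minimum on the 19 autosomes. They lay at 1140 CpGs, of which 540 were read on both strands, between positions 36932198 and 37887833. The files listed 3483 cytosines in this interval at any coverage, so the others stayed below the minimum in at least 1 library. Methylation was read by reduced representation bisulfite sequencing: restriction fragments rich in CpGs are treated so that unmethylated cytosines are converted and methylated ones are not. The DNA came from liver of CD-1 mice, an outbred stock, aged 12 weeks. The control library came from untreated mice kept on standard chow and the fasted library from mice that went 12 hr without food. With 1 library per group and no word on how many mice went into each, every level below is that of a single library, and a test on reads tells the 2 libraries apart rather than the conditions.

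Clustered protocadherins are cell adhesion proteins best known from neurons, where the set of isoforms on a cell's surface gives it an identity that neighbouring neurites can read. Most of the genes begin with a large variable exon that has its own promoter and encodes the extracellular cadherin repeats, and in the alpha and gamma clusters this exon is spliced to constant exons shared by the whole array, while beta genes stand alone. Promoter choice is bound up with DNA methylation and with the insulator protein CTCF, and expression of the locus is best known from the nervous system. Only methylation was measured here, so nothing below speaks to expression.

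The gene table placed the alpha cluster at chr18:36930285-37188897 with 14 genes, the beta cluster at chr18:37264998-37521419 with 22 genes and the gamma cluster at chr18:37661775-37841873 with 22 genes. The gamma cluster held 856 of the cytosines, the beta cluster 346, the alpha cluster 271 and the stretches outside them 207. Median coverage of the members was 19 reads in each library, close to the 18 and 19 reads of all autosomal cytosines tested. For each gene a variable exon window was taken from 500 bp before to 2500 bp after the annotated start, cut at the next start, and 79.5% of the members fell in such a window. Exon and CpG island annotations were not used here, so these windows and runs of closely spaced CpGs stand in for exon CpG islands.

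Cytosines of the locus stood at intermediate methylation far more often than autosomal cytosines at large. In the control library 47.6% of the members had a level from 20 to 80% (exact 95% binomial interval 45.1 to 50), and in the fasted library 45.2% did (42.8 to 47.7). Over all autosomes the shares were 16.2% and 15.5%, and over the rest of chromosome 18 they were 16.6% and 15.8%. The Hox clusters, another set of developmental gene arrays, stood at 7.95% and 7.85%. Levels below 10%, which made up 52.9% of autosomal cytosines in the control library, made up 23.7% of the locus, and levels of 90% or more made up 11% against 19.5%. The locus thus filled the middle of the scale in both libraries, as the plot of level distributions shows. These intervals, like all others here, cover counting error only, because reads amplified by PCR and lacking molecular identifiers may copy the same molecule.

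**Figure D1:**
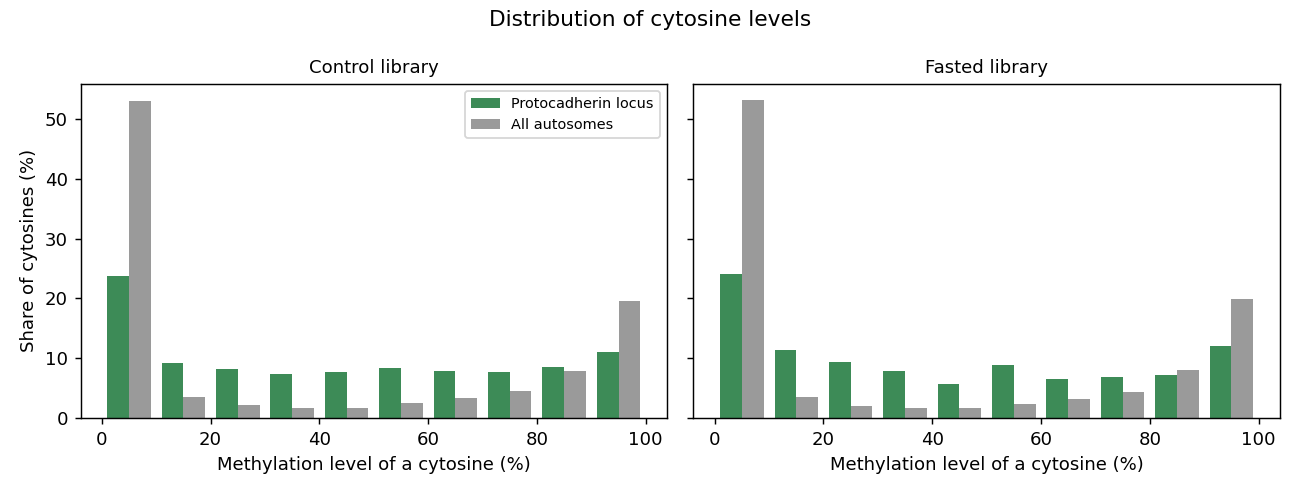
Share of CpG cytosines (%) in each 10-point class of methylation level (%) in the control and the fasted library, for the 1680 cytosines of the locus and for all autosomal cytosines that reached 10 reads in both. In the lowest class the locus has 23.7% of its cytosines and the autosomes 52.9% in the control library, while the locus is above the autosomes in every class from 10 to 80%.

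The mean level over the locus was 43.0% in control liver and 41.5% in fasted liver, a difference of -1.51 percentage points (counting interval -2.12 to -0.902). The medians were 40.9% and 36.4%, with 774 cytosines lower, 687 higher and 219 equal in the fasted library. Autosomal means were 35.4% and 35.5%, and on the rest of chromosome 18 they were 38.9% and 39.0%. With each read rather than each cytosine weighted equally, the difference at the locus was -0.757 points. Without replicate libraries, the spread between mice that these differences would have to exceed is unknown.

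The clusters differed from each other in level by more than the libraries differed within any of them. Beta was the most methylated, at 62.4% in control and 60.2% in fasted liver, a difference of -2.27 points (-3.79 to -0.75). At a minimum of 20 reads, however, the beta difference was 0.431 points. Gamma was the least methylated, at 32.8% and 31.2%, a difference of -1.58 points (-2.42 to -0.742), or -0.566 points with reads weighted equally. Alpha lay between them at 41.2% and 40.4%, and its difference of -0.819 points had an interval that spanned 0 (-2.28 to 0.638), ranging from -3.17 points at a minimum of 20 reads to -0.0618 points with strands merged. The alpha mean covers a split inside the cluster. Cytosines in the windows of its Pcdha genes stood at 59.3% and 56.3%. Those of its 2 C-type genes were lower, at 32.5% and 28.5% in Pcdhac1 and at 8.44% and 9.11% in Pcdhac2. The C-type genes, 2 at the end of alpha and 3 at the end of gamma, are the isoforms expressed most widely among neurons. Over the 322 cytosines in the windows of all 5, of which 128 lay in Pcdhgc3, the mean was 12.1% and 11.3%.

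Between the variable exon windows the DNA was mostly highly methylated. Inside the alpha cluster but outside its windows the 46 cytosines stood at 78.3% in control and 82.9% in fasted liver, and the 42 such cytosines of the beta cluster stood at 79.4% and 80.8%. The 49 of the gamma cluster were lower, at 56.9% and 51.5%. Outside the windows the difference was 4.6 points in alpha (1.27 to 7.93) and 1.42 points in beta (-2.14 to 4.97). In gamma it was -5.45 points (-9.27 to -1.63), so the clusters went in different directions. Downstream of the gamma cluster 29 cytosines stood at 69.4% and 72.6%. Low methylation away from the protocadherin starts was found in few places, but these held many cytosines. Outside the clusters, 30% of the 207 cytosines in control and 28.5% in fasted liver were below 10%. The mean was 34.4% and 35.6% between alpha and beta, and 57.2% and 54.9% between beta and gamma. One low place was the start of Taf7, which encodes a subunit of the general transcription factor TFIID and lies between beta and gamma. A run of 38 cytosines there stood at 0.201% and 0.454%. Between alpha and beta, 21 cytosines at chr18:37218228-37218448 stood at 4.67% and 3.49%.

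**Figure D2:**
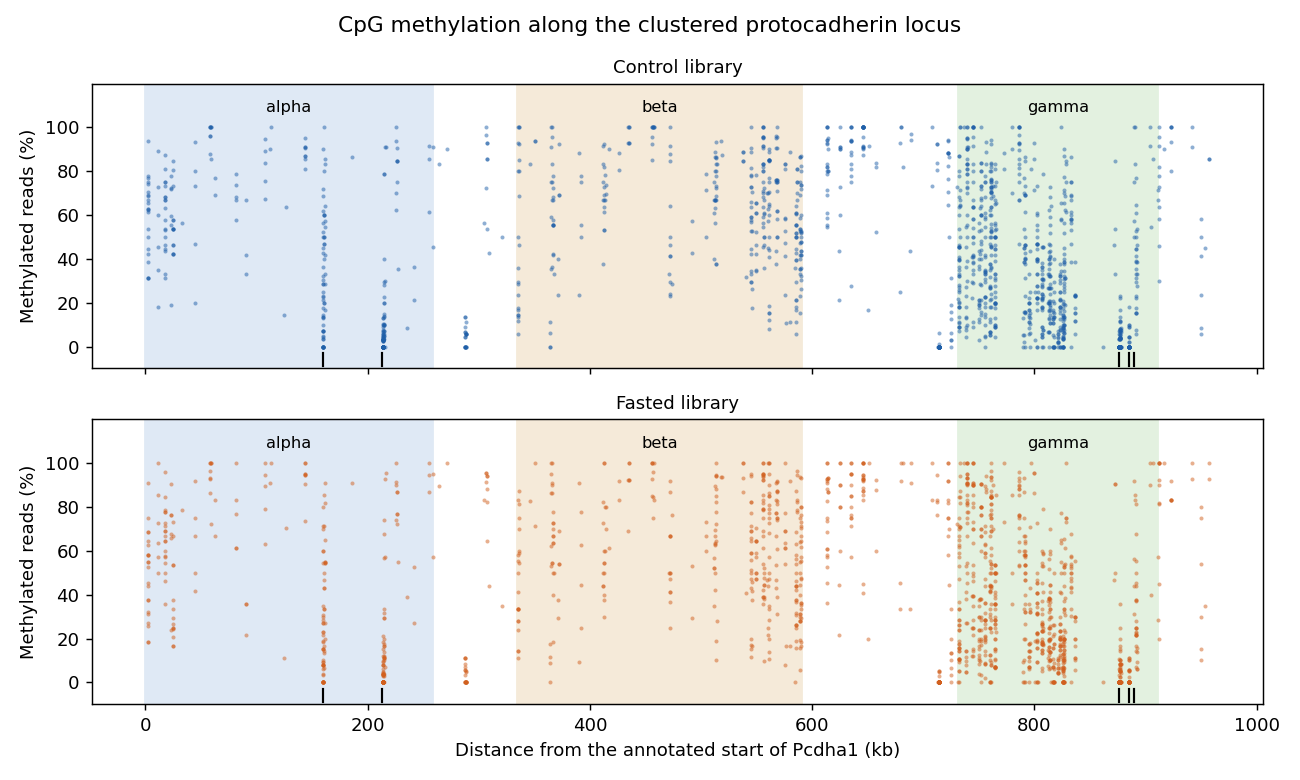
Methylated reads (%) at each of the 1680 cytosines against distance from the annotated start of Pcdha1 (kb), 1 point per cytosine, in the control library above and the fasted library below, with the alpha, beta and gamma clusters shaded and the starts of the 5 C-type genes ticked. Levels scatter across the whole scale within the arrays and drop close to 0 at Pcdhac2, Pcdhgc3 and Pcdhgc4 in both libraries.

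Of the 58 protocadherin genes, 44 had a measured window, meaning at least 5 member cytosines. These were 6 of 12 alpha genes, 15 of 22 beta genes, 11 of 12 gamma A genes, 7 of 7 gamma B genes and 5 of 5 C-type genes. Pcdha5, Pcdha6, Pcdha8, Pcdha9, Pcdha10, Pcdha12, Pcdhb4, Pcdhb6, Pcdhb8, Pcdhb10, Pcdhb11, Pcdhb12, Pcdhb14 and Pcdhga6 had fewer than 5. The median gene stood at 52.9% in control and 47.6% in fasted liver, against 2.89% and 2.85% over the 19930 measured start windows of all autosomal genes. Only 19 of the 44 genes had at least 5 member cytosines within 500 bp of the start, so many of these levels describe the inside of the exon. Where in their windows the other autosomal genes were read was not compared. A level of 20 to 80% was held by 36 of the 44 genes in control liver and by 38 in fasted liver, whereas 13.9% and 13.5% of all autosomal genes held one. Of 38 measured Hox genes, 1 and 2 did. Across the 44 genes, which are not independent replicates, Pearson's r between the libraries was 0.954 and Spearman's rho 0.921. The rank correlation was 0.948 within gamma A and B and 0.789 within beta, but 0.371 over the 6 alpha genes, whose order was not alike.

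Alpha genes lay in a narrow band in the control library, from 53.5% to 69.1%. Pcdha11 was the highest, at 69.1% in control and 76.7% in fasted liver over 5 cytosines, followed by Pcdha7 (62.7% and 65.0%) and Pcdha3 (60.0% and 66.0%). In the fasted library the band widened to between 45.1% and 76.7%. Pcdha1 and Pcdha4 were lower there, while Pcdha2 moved the other way, from 53.5% to 71.5%. Pcdha2 rested on 6 cytosines and its adjusted p was 0.265, so that its difference of 18.1 points was not past the threshold.

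Beta genes, each a single exon without shared constant exons, also formed a band. All 15 lay between 41.4% and 74.4% in control liver and between 40.4% and 71.5% in fasted liver. Pcdhb17 (74.4% and 68.1%), Pcdhb19 (72.9% and 71.5%) and Pcdhb13 (70.6% and 64.5%) stood highest. Pcdhb21 (41.4% and 40.4%), Pcdhb1 (50.3% and 46.7%) and Pcdhb22 (52.3% and 48.4%) stood lowest. Their levels had no order along the array, with a Spearman rho between position and level of -0.00357 in control and 0.139 in fasted liver. The fasted library was lower at 10 of the 15 genes, and the largest differences were at Pcdhb7 (69.0% to 58.6%), Pcdhb3 (58.9% to 48.8%) and Pcdhb5 (61.7% to 51.6%). None of these differences passed the test, with adjusted p of 0.256, 0.840 and 0.528.

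Gamma A and gamma B genes, which alternate along 1 array, covered a much wider range and were less methylated toward its end. The 9 measured genes from Pcdhga1 to Pcdhgb4 lay between 38.2% and 85.2% in the control library with a median of 45.8%, and between 30.3% and 78.1% in the fasted library with a median of 44.1%. The 9 genes from Pcdhga8 to Pcdhga12 had medians of 23.8% and 24.0%. Pcdhgb8, which the gene table lists as a transcribed pseudogene, stood apart in that second stretch at 58.2% and 45.5%. The other 8 genes there lay between 12.1% and 35.3% in control and between 11.3% and 29.4% in fasted liver. The split of the array into these stretches was chosen after the values were seen. Spearman's rho between position and level was -0.62 in control and -0.647 in fasted liver over the 18 genes, and -0.828 and -0.801 without Pcdhgb8.

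Pcdhga7 was the most methylated gene of the locus, at 85.2% in control and 78.1% in fasted liver over 17 cytosines. Pcdhga2 (61.0% and 64.1%) and Pcdhga3 (57.9% and 57.5%) came next in the gamma array by the mean of both libraries, with Pcdhgb8 above Pcdhga3 in control liver. Pcdhga10 was the lowest of the A and B genes, at 12.1% and 11.3% over 23 cytosines. The measured cytosines did not lie at the same distance in every gene, and those of Pcdhga7 lay 1452 to 1674 bp after its start. Pcdhga12 was read at 1088 to 1187 bp and stood at 19.4% and 22.3%.

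C-type genes divided into 3 nearly unmethylated and 2 intermediate ones, and none differed between the libraries past the threshold. Pcdhgc3, which had the largest number of measured cytosines, stood at 2.09% and 2.30% over 128 cytosines. Pcdhgc4, an isoform that neurons need to survive, stood at 2.16% and 2.11% over 34, and Pcdhac2 at 8.44% and 9.11% over 81. Pcdhac1, by contrast, stood at 32.5% and 28.5% over 62 cytosines. Its promoter side was low, since the 18 cytosines in the 500 bp before the start stood at 5.53% and 4.90%, but the 26 in the first 500 bp after it stood at 40.5% and 34.2%. Pcdhgc5 stood at 51.5% and 45.5% over 17 cytosines, of which only 3 lay in the first 500 bp. The 3 low genes were also the only measured protocadherin genes of the locus below 10% in both libraries, the state of 68.2% of all autosomal start windows in the control library.

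**Figure D3:**
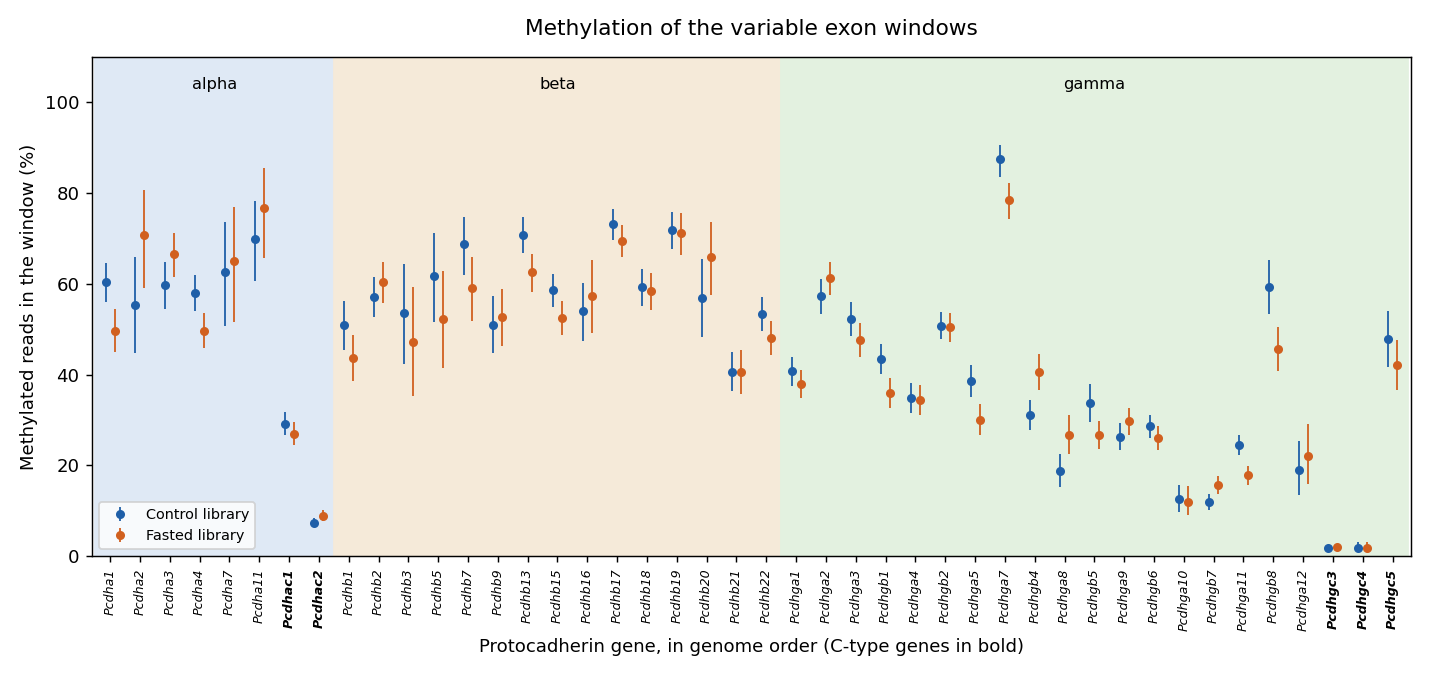
Methylated reads (%) in each measured variable exon window in genome order, control and fasted library side by side, with exact 95% binomial intervals on the pooled reads of the window that cover counting error only. Pooled levels differ slightly from the mean cytosine levels in the text. The beta genes form a band, the gamma A and B genes step down after Pcdhgb4 apart from Pcdhgb8, and Pcdhac2, Pcdhgc3 and Pcdhgc4 sit near the floor.

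Within the windows of gamma A and B genes, methylation was low at the start of the exon and higher inside it. The 14 cytosines in the 500 bp before the start stood at 6.37% in control and 6.87% in fasted liver. The 180 in the first 500 bp stood at 21.4% and 20%, and the 147 in the next 500 bp at 40.3% and 38.2%. From 1000 to 1500 bp the 108 cytosines reached 60.2% and 60.0%. The next bin stood at 45.1% and 42.7%, and the last 500 bp at 30.7% and 28.4%. These last 3 bins held 16, 10 and 2 genes. A decline along the exon can therefore not be read from them. Beta genes also peaked from 1000 to 1500 bp, at 78.8% and 71.9%. Their level was 45% and 38.9% before the start and 39.3% and 42.8% in the first 500 bp. Those 2 bins rested on 3 and 6 genes, which were not alike. In Pcdhb1 the first 500 bp stood at 21.8% and 29.1%. Close to the start of Pcdhb2, 5 cytosines stood at 10.5% and 18.2%, while 11 close to that of Pcdhb13 stood at 69.2% and 57.6%.

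The genes that contribute differ from bin to bin, so the same comparison was made inside single genes, a choice made after the values were seen. All 12 genes with at least 3 cytosines in both bins had a higher level from 1000 to 1500 bp than in the first 500 bp, in each library. They were 9 gamma A and B genes, 1 beta gene and 2 C-type genes. Pcdhga2 went from 23.0% to 85.0% along the exon in control liver and from 20.6% to 90.6% in fasted liver. Pcdhga11, from the less methylated end of the array, went from 6.32% to 49.1% and from 9.19% to 31.3%. Even the weakly methylated Pcdhgc3 went from 0.617% to 6.58% and from 0.55% to 7.56%. No alpha gene had enough cytosines in both bins, since 50 of the 82 cytosines in alpha windows lay beyond 2000 bp.

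**Figure D4:**
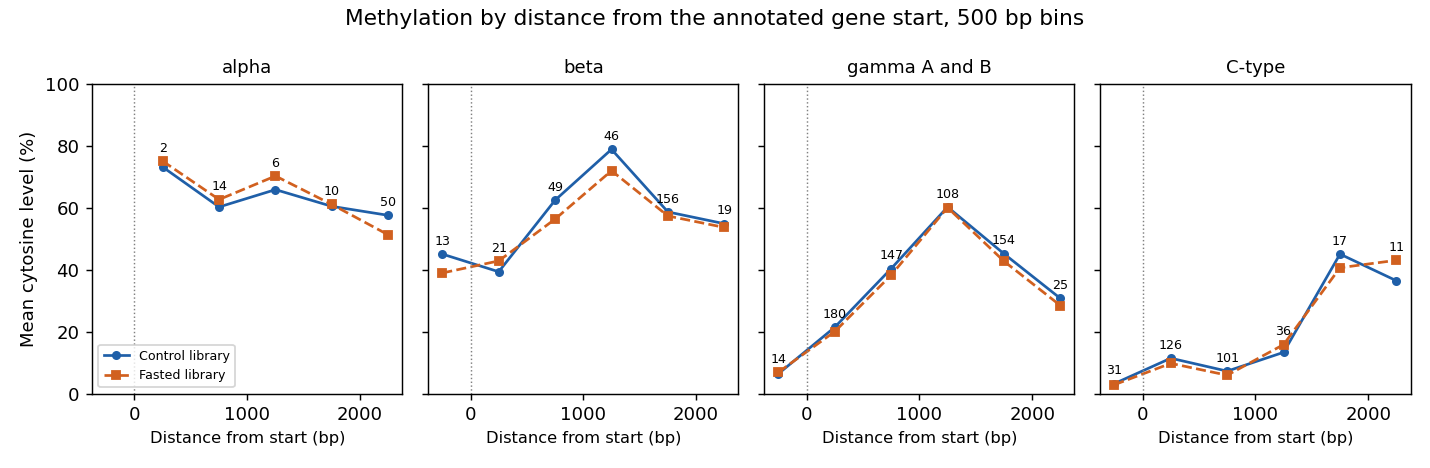
Mean cytosine level (%) in 500 bp bins by distance (bp) from the annotated gene start for alpha, beta, gamma A and B, and C-type genes, in the control library (circles, solid line) and the fasted library (squares, dashed line), with the number of cytosines in each bin printed above it. In gamma A and B genes both lines climb from 6.37% and 6.87% before the start to 60.2% and 60.0% at 1000 to 1500 bp, and alpha genes have only 2 cytosines in the first 500 bp.

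Island-like runs at the locus were also often intermediate, and these began after the gene starts. A run was a chain of CpGs with gaps of at most 100 bp, at least 200 bp long and with at least 5 CpGs per 100 bp, and 17 of the 20 runs at the locus held at least 5 member cytosines. Of these, 7 (41.2%) stood at 20 to 80% in control liver and 8 (47.1%) in fasted liver, against 6.54% and 5.63% of the 16098 measured autosomal runs. Only 35.3% were below 10% in the control library, against 79.6% of autosomal runs. The intermediate runs in control liver began 301 bp (Pcdhga1) to 1857 bp (Pcdhb16) after the start of the gene. The run across the start of Pcdhga11 stood at 5.95% and 7.41%. Where autosomal runs lie relative to gene starts was not compared. The lowest included the runs at Taf7, at the start of Pcdhgc3 (0.753% and 0.568% over 80 cytosines), in Pcdhgc4 (2.16% and 2.11%) and in Pcdhac2 (3.08% and 3.16%). The highest outside the arrays of exons was a run at the pseudogene Gm8242, at 83.5% and 82.3%, and the highest inside them was the run in Pcdhga7, at 85.2% and 78.1%.

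The lower mean of the fasted library lay chiefly in members of intermediate level. For the 822 cytosines with a mean level of 20 to 80% over both libraries, the mean was 50.5% in control and 47.3% in fasted liver, a difference of -3.23 points (-4.31 to -2.15). Of them 55.2% were lower and 42.9% higher in the fasted library. Over all autosomes the same class stood at 56.1% and 56.3%, a difference of 0.199 points, and on the rest of chromosome 18 it differed by 0.328 points. Split further, the difference at the locus was -3.11 points for mean levels of 10 to 40%, -3.37 points for 40 to 60% and -0.552 points (-2 to 0.896) for 60 to 90%. The autosomal values were -1.15, 0.115 and 0.818 points. Cytosines of the locus below 10% barely differed, by -0.0526 points (-0.557 to 0.451). The difference of a single cytosine in the 20 to 80% class had an SD of 19.9 points at the locus, where counting error alone gives 15.8, much as on the autosomes, where the values were 20 and 16.6. An unadjusted p under 0.05 was found for 10.7% of these cytosines at the locus and for 7.56% on the autosomes.

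Few members differed past the thresholds when taken singly. Fisher's exact test (two-sided) on reads, adjusted by Benjamini-Hochberg over all autosomal cytosines and called at a difference of at least 25 points, called 1 of the 1680 cytosines, where the background over the autosomes was 0.0820%. In the 20 to 80% class it called 1 of 822, against a background of 0.492%. That cytosine, on the minus strand at position 37575838 between the beta and gamma clusters, was methylated in 23 of 23 control reads and in 13 of 32 fasted reads (40.6%), with an adjusted p of 0.00327. The cytosine on the other strand of the same CpG was methylated in all 12 control and all 14 fasted reads, so the strands disagreed in the fasted library.

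The 5 other largest changes at single cytosines did not pass the adjusted test. In Pcdhb13 the cytosine at 37444311 went from 83.3% to 27.8%, and in Pcdhb22 the cytosine at 37519360 from 86.7% to 31.2%. Higher levels in fasted liver were found in Pcdhga2 at 37669711 (10% to 81.8%), in Pcdhga8 at 37726758 (6.25% to 70.8%) and in Pcdhb2 at 37295853 (36.4% to 86.4%). At Pcdhb2 the other strand stood at 44.4% and 81.2%, in the same direction. At Pcdhb22 it stood at 75% and 63.9%, a smaller drop, and at Pcdhga2 at 50% and 75%, while at Pcdhga8 it was covered by 3 and 6 reads only. Over the 263 CpGs of intermediate level read on both strands, the median absolute difference between the strands was 11.7 points in control and 10.7 points in fasted liver. The median absolute difference between the libraries was 13.1 points on the plus and 14.7 points on the minus strand, so a typical difference between libraries was little larger than that between strands of 1 library. Differences between the libraries on the 2 strands of a CpG had a Pearson's r of 0.356, against 0.265 over all autosomes, so they repeated in part.

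Summed over windows of 1000 bp, 6 of 116 windows were called by the same test, with the adjusted p under 0.05 and 10 points or more between the mean levels, against a background of 2.0%. Since windows of intermediate level are called more often, the nearer comparison is with those of mean level 20 to 80%, where 6 of 74 windows (8.11%) were called against a background of 4.60%. The 5 called windows that were lower in the fasted library compare with a background of 2.23% for that direction. Neighbouring cytosines share molecules, so these p-values are too small. Every window call was lost when reads were divided by the number of cytosines in the window, and 1 remained when all read counts were halved. Over all autosomes, 0.0032% and 0.352% of windows were called under these settings.

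Called windows lay in all 3 clusters. In Pcdha4 the 14 cytosines at chr18:36954786-36954976 went from 56.3% to 35.8%, lower at 13 of them, with an adjusted p of 1.4e-05. Once cytosines with 5 reads or more were let in, the same window differed by -8.37 points and was not called. In Pcdha1 the 22 cytosines at chr18:36932198-36932579 went from 59.6% to 49.2%, and in Pcdhb1 the 10 at chr18:37266031-37266193 from 84.5% to 67.9%. In the gamma cluster the 33 cytosines at chr18:37695026-37695587 in Pcdhga5 went from 43.3% to 31.8%, and the 36 at chr18:37756210-37756969 in Pcdhga11 from 27.2% to 16.4%. Pcdhga8 held the only called window that was higher in fasted liver, where 7 cytosines at chr18:37726626-37726922 went from 27.8% to 46.5%. At a minimum of 20 reads its difference was 9.84 points, and no window of the locus was called higher. The windows of Pcdhga5 (-7.63 points) and Pcdhga11 (-9.79 points) were not called at 20 reads either, and at 5 reads those of Pcdhb1 (-12.6 points) and Pcdhga11 (-9.79 points) were not. The stretch in Pcdhga11 also held the only called island-like run, chr18:37756544-37756785, which went from 32.7% to 19.4% with 22 of 27 cytosines lower and an adjusted p of 0.000411. That is 1 of 17 runs against a background of 1.53%, and 1 of the 7 runs of intermediate level against a background of 16.4%.

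At the scale of whole variable exon windows, 26 of the 44 genes were lower and 18 higher in the fasted library. Called windows numbered 3 of 44, against a background of 1.50% of all autosomal start windows. All 3 were among the 38 genes of mean level 20 to 80%, a share of 7.89% against a background of 7.92%, so for their level the genes were called no more often than other genes. Pcdhgb8 went from 58.2% to 45.5%, lower at 14 of 16 cytosines, with an adjusted p of 0.0107. Pcdha1 went from 59.6% to 49.2%, lower at 16 of 22 cytosines, with an adjusted p of 0.0216. Pcdha4 went from 57.2% to 45.1%, lower at 14 of 20 cytosines, with an adjusted p of 0.0432, and its cytosines are also those of the overlapping gene model Gm37013. Its drop came from the 14 cytosines of the called 1000 bp window. The other 6 went from 59.3% to 66.7%, higher at 5 of them. With all read counts halved, none of the 3 was called, where 0.426% of all autosomal start windows were. With cytosines of at least 5 reads Pcdha4 and Pcdhgb8 differed by -4.86 and -8.98 points and were not called.

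By the adjusted p alone, without a minimum difference, 8 of the 44 genes passed, against a background of 7.30%, and 7 of the 38 of mean level 20 to 80% (18.4%), against a background of 11.5%. Beside the 3 called genes these were 5 with a difference under 10 points, 4 of them lower and 1 higher. Pcdhga5 went from 38.2% to 30.3%, Pcdhga7 from 85.2% to 78.1%, Pcdhga11 from 24.1% to 17.2% and Pcdhgb1 from 45.8% to 40%, all lower in the fasted library. At a minimum of 20 reads, however, the difference was 1.22 points at Pcdhgb1, in the other direction, and -1.44 points at Pcdhga5. Within 500 bp of its start, Pcdhga11 differed by 1.34 points, also in the other direction. Pcdhgb4 went from 40.4% to 44.1% as a mean over cytosines and from 31.1% to 40.6% over pooled reads, so the size of its difference depended on the weighting. The third largest difference among gamma genes was at Pcdhgb5, from 35.3% to 27.7%, which did not pass (adjusted p 0.0675). Variable exons of neighbouring protocadherin genes resemble each other in sequence, and how reads that match several places were handled is not given in the sources used here, so single gene values carry that uncertainty.

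Other genes inside the interval had measured windows at 6 places, with control levels from 8.50% at Taf7 to 96.2% at the pseudogene Gm36858. The largest differences among them were at Gm37013, described with Pcdha4, then at Mir6979 (94.7% to 85.0%) and Gm8242 (81.0% to 78.2%), and the last pair did not pass the test. Gm38667 shares the cytosines of Pcdha7.

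Nonclustered protocadherins, which are related adhesion genes spread over the genome with ordinary promoters, mostly stood low in their start windows. Many clustered genes were read inside the exon, and where the nonclustered genes were read was not compared. The contrast in level may therefore be partly one of position, which was not tested. Of 11 genes, 9 were measured, 8 of them were below 10% in both libraries, the median was 3.61% in control and 3.40% in fasted liver, and none was called. Their largest differences were at Pcdh15 (23.3% and 30.6% over 5 cytosines) and Pcdh9 (3.61% and 1.08%). Genes for factors that act on the clusters, such as Ctcf, the cohesin subunits Rad21 and Smc3, and the chromatin protein Smchd1, were likewise low at their starts. Of 14 such genes 9 were measured and none was called, with medians of 0.525% and 0.488%. The exception in level was Dnmt1, the maintenance methyltransferase, at 94.7% and 92.5% over 14 cytosines, the largest difference of this list. They lie near the outer annotated end of the gene, and whether the promoter used in liver lies there was not tested. The next largest difference was at Setdb1, a histone methyltransferase, at 6.51% and 7.19%.

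The tissue label could be checked only through methylation at an annotated end of marker genes, taken as the start. Pecam1, Cdh5 and Pdgfrb had no strand on record. For them the end with more member cytosines was used, and whether it is the start was not tested. Of 10 hepatocyte markers 3 were measured, Fgb at 21.3% and 19.5%, Krt18 at 17.7% and 18% and Krt8 at 8.07% and 2.63%, with none called. Of the markers of other cells, 2 differed between the libraries past the threshold, both upward. The background was 1.50% of all autosomal start windows and 7.92% of those of mean level 20 to 80%. The 2 called were Eng, an endothelial gene, 1 of 4 endothelial markers called, at 32.7% and 67.0%, and Pdgfrb, a stellate cell gene, 1 of 3 called, at 25.3% and 51.5%. The other endothelial markers, Pecam1 (71.1% and 71.2%), Cdh5 (72.1% and 67.7%) and Kdr (4.07% and 3.72%), were not called. Nor were the other stellate markers, Des (15.2% and 14%) and Lrat (5.1% and 4.29%). The only measured immune marker of 5, Cd37, stood at 52.5% and 48.5%, and no neuronal marker of 3 was called. Whether a different mix of cells in the libraries had a part in the differences at the protocadherin locus was not tested.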

How the data were processed

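Liver DNA was cut with TaqαI and MspI, size selected, bisulfite converted and amplified, per the labels' protocols. Demultiplexing with bcl2fastq 1.8.4 and alignment software Bismark 0.14.3 are listed in the submitters' processing notes, with the build mm10. The sources used here do not give alignment settings, duplicate removal or filters. A base difference from C to T in these outbred mice reads as an unmethylated cytosine.

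The deposited files list each CpG cytosine by strand with a text field of methylated and total reads, and a deposited score that equals 1000 times the methylated share of those reads to within 0.5. The authors' read counts were used unnormalized, with positions counted from 1. The control file holds 49253627 reads over cytosines and the fasted file 51276705, where a read counts once per cytosine.

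A level is the methylated share of reads, and a regional level is the mean over its cytosines. Samples were grouped by title. Fisher's exact test (two-sided) on methylated and unmethylated reads, summed within a region, was run on all autosomal features of a kind, with Benjamini-Hochberg adjustment over them (numba 0.67.0, scipy 1.17.1). Regional calls needed an adjusted p under 0.05 and 10 points, with at least 3 cytosines in a 1000 bp window and 5 in a run or start window. For intervals of mean differences, reads were taken as independent. Among members of intermediate level, methylated and total reads were both even at 57.0% of control and 45.9% of fasted cytosines with 30 to 49 reads, and at 25.8% and 29.3% with 10 to 19 reads, where independent reads give 25%. Some reads were therefore counted 2 at a time, which makes the p-values too small and the intervals too narrow.

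Gene positions are from RefSeq, GRCm38.p6, which is mm10. The table gives no strand, so the lower coordinate was taken as the start of a cluster gene. For 25748 of the 47042 autosomal genes the strand came from RefSeq promoter records, and for the others the end with more member cytosines was used. The tests were checked on simulated data. All measured cluster genes count as members. Those named are, per cluster, the 3 highest, 3 lowest and 3 most different genes, all C-type genes, everything called, the 3 most different other genes, the 3 largest single increases and decreases, and 2 genes of each list, while marker genes, the 5 genes past the adjusted p alone and the Hox clusters were chosen after values were seen. The members and lists were chosen with earlier results of these data known. Alternatives covered coverage minimums, merged strands, halved counts, thresholds, window sizes, reads per cytosine, run definitions, read weighting and a cap on coverage.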

Additional observations from a re-analysis of the deposited data

How the results depend on the processing

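Calls at the locus were few and most depended on how reads were counted, as did calls over all autosomes. With halved read counts the number called was 0 cytosines, 1 window, 0 runs and 0 variable exon windows. The autosomal shares were then 0.00574%, 0.352%, 0.627% and 0.426%. With reads scaled down by the cytosines in a region it was 0 windows, 0 runs and 0 variable exon windows. Autosomal shares there were 0.0032%, 0.00621% and 0%. At a difference of at least 20 points it was 1, 0 and 0, against 1.1%, 0.385% and 0.457%. Runs called numbered 2 at a minimum of 20 reads, 2 at 4 CpGs per 100 bp and 0 at gaps of at most 50 bp. The autosomal shares were 0.819%, 1.97% and 1.51%. Merging the strands called 2 of 1250 sites (0.18% on the autosomes). With 500 bp on each side of the start, 0 of 19 windows were called (1.27% on the autosomes). At 20 reads the alpha difference was -3.17 points, the beta difference turned to 0.431 points, and the intermediate shares were 43.3% (control) and 39.0% (fasted). With reads weighted equally the differences were -0.757 points for the locus, -0.566 points for gamma and 2.37 points outside the clusters, where the value changed sign. The variable exon windows called were Pcdha1 and Pcdhb7 of 49 at 5 reads, and Pcdha1, Pcdha4 and Pcdhga7 of 25 at 20 reads. The backgrounds over all autosomal start windows were 1.53% and 0.9%. At 5 reads the differences at Pcdha1, Pcdha4 and Pcdhgb8 were -12.6, -4.86 and -8.98 points. At 20 reads they were -17.7 points at Pcdha1 and -13.7 points at Pcdha4, and Pcdhgb8 was not measured. The other alternatives that measured these genes kept the same cytosines, so the sign was nearly fixed there. These genes were also picked because they were called. The causes were not tested. No paired analysis was possible because each group has 1 library, and leaving out a library leaves no comparison. At a median of 19 reads a single cytosine cannot resolve differences of a few points.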
